A study of Homo sapiens and Mus musculus with 99 samples.

Results

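IL6, LIF and IL11 are cytokines that signal through the shared receptor chain gp130, and their transcripts were followed here through a study of how airway epithelial cells respond to membrane-perforating proteins. The members were taken by name. They are 3 human genes of 57820 in the count tables (IL6, LIF and IL11, matched by symbol) and the 3 mouse genes Il6 (ENSMUSG00000025746), Lif (ENSMUSG00000034394) and Il11 (ENSMUSG00000004371) of 55401, matched by identifier. In hg19, IL6 lies on chromosome 7 from 22765503 to 22771621 on the plus strand, LIF on chromosome 22 from 30636436 to 30642840 on the minus strand, and IL11 on chromosome 19 from 55875757 to 55881831 on the minus strand. In mm10, Il6 lies on chromosome 5 from 30013114 to 30019981 (plus), Lif on chromosome 11 from 4257557 to 4272514 (plus) and Il11 on chromosome 7 from 4772373 to 4782859 (minus).

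RNA was sequenced from 99 libraries in 13 experiments, of which 51 libraries in 24 groups came from human cells and 48 libraries in 23 groups from mouse lung. The human cells were NCI-H1437 and NCI-H292, lines from non-small cell lung cancers, taken 4 h after treatment. The mouse cells were epithelial cells of the lung, taken 6 h after treatment through the nose. Each treated group was compared with mock-treated cells or mice of its own experiment, which received DPBS, a buffered saline. Lung1 and H1437-1 had 3 libraries in a group and all other experiments 2.

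In NCI-H1437, H1437-1 held ALT with Tra, ALT (an extract of the mould Alternaria alternata) and DPBS. H1437-4 held extracts labelled aegs KO ALT, aegl KO ALT and WT ALT, and DPBS. H1437-2 held Aeg-S with Aeg-L and Tra, the pair alone (Aeg-S/L), Aeg-S alone, Aeg-L alone and DPBS. H1437-3 held Aeg-S/L with BAPTA-AM, Aeg-S/L with EGTA, Aeg-S/L and DPBS. Tra is not spelled out in the labels, and the name of a deposited table calls it a MEK inhibitor. BAPTA-AM is a calcium chelator that enters cells, and EGTA binds calcium outside them. In NCI-H292, H292-1 held the same groups as H1437-4, and H292-2 the same groups as H1437-3. No dose is given in the sources used here, and no group received an inhibitor or chelator without a stimulus.

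In mice, Lung1 compared ALT with DPBS, and Lung3 held aegs KO ALT, aegl KO ALT, WT ALT and DPBS. Lung2 held Aeg-S/L, Aeg-S, Aeg-L and DPBS. Lung4, in mice labelled WT, held lysenin, PlyA2EryB and LSL, which are further pore-forming proteins, and DPBS. The labels give no genotype for Lung1, Lung2 and Lung3. IL33KO1 (ALT, Aeg-S/L and DPBS) and IL33KO2 (lysenin, PlyA2EryB, LSL and DPBS) used mice labelled IL-33 KO. Rag2gc (Aeg-S/L and DPBS) used mice labelled Rag2-/-; gc-/-, genes needed for lymphocytes and for signalling by several interleukins. No age is given in the sources used here.

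As background, IL-6, LIF and IL-11 each bind a further receptor chain and signal through it together with gp130, encoded by IL6ST. IL-6 uses IL6R, IL-11 uses IL11RA, and LIF uses LIFR. The joined chains activate JAK kinases and the transcription factor STAT3, which induces among others the feedback inhibitor SOCS3. IL-6 is known for the acute phase response and for shaping T and B cell responses, LIF for acting on stem cells, neurons and injured epithelium, and IL-11 for effects on fibroblasts, epithelium and platelet precursors. All of these transcripts can be induced in epithelial cells by injury and by microbial products.

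The promoters are shown because IL6 and IL11 went the same way in most human comparisons but by very different amounts. Of the 3 human members, 2 matched a promoter in the RefSeq table of GRCh38.p14, a build other than that of the counts, and the 250 bases before each start are printed below, 5′ to 3′ along the gene. Capitals mark matches, on either strand, to AP-1 (TGANTCA), a cyclic AMP response element half-site (TGACG), C/EBP (TTGCNNAA), STAT (TTCNNNGAA) or the NF-kB consensus.
IL6, chr7:22726950-22727199 (+): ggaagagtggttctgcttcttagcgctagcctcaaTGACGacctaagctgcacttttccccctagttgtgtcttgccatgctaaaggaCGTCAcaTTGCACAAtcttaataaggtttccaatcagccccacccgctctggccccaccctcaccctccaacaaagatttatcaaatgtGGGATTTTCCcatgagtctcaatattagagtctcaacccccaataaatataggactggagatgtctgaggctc
IL11, chr19:55370464-55370713 (-): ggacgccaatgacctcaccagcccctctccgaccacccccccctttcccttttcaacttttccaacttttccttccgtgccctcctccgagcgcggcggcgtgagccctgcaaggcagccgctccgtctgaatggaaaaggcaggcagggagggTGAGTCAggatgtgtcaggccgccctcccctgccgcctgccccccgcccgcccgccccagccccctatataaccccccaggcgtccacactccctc

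The IL6 window held 2 matches to the response element half-site, from 215 to 211 bases before the start and, on the other strand, from 162 to 158 bases before it. It also held TTGCACAA, from 155 to 148 bases before the start, and an NF-kB match, GGGATTTTCC, from 73 to 64 bases before it. The IL11 window held 1 match, the AP-1 site TGAGTCA, from 96 to 90 bases before the start. No matches overlapped, and neither window held the STAT letters. Sites outside these windows were not looked for, and the part of any match in the responses was not tested. Among 35116 promoter windows of this length, 6.57% held the AP-1 letters, 21.2% the half-site, 9.05% the C/EBP letters, 6.57% the STAT letters and 5.21% the NF-kB consensus.

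Libraries held 32.4 to 53.2 M counted fragments in human cells and 29.6 to 66.3 M in mice. Levels are given in CPM, a count scaled to all counted fragments of its library, or, between genes, per kilobase of exon as well (FPKM). Human libraries had 228 to 518 CPM of EPCAM and 1006 to 2444 CPM of KRT8, which mark epithelium, and 0 to 0.215 CPM of the blood cell marker PTPRC. Among other cell type markers, COL1A1 of fibroblasts was at 19.2 to 218 CPM and PDGFRA at 0 to 0.144 CPM, and CDH5 of endothelium at 1.59 to 75.3 CPM. Mouse identifiers were not paired with names, so the marker check was not made for mouse lung. 3 libraries are treated here as standing apart, for their mitochondrial share or their member values. Member changes that rest on them are given with and without them. Aeg-S 2 of H1437-2 had 5.66% of its counts on the mitochondrial chromosome, against 0.190% to 3.45% in the other human libraries. DPBS 1 of IL33KO1 had 5.83%, against 2.40% to 4.36% in the other mouse libraries. ALT+Tra 3 of H1437-1 was the lowest of its group in all members. Other libraries also differed within their group. Over all genes, chi-square per degree of freedom between libraries, larger where they are less alike, was 143 for DPBS of IL33KO1. It reached 343 for DPBS of H1437-1 and 200.5 for DPBS of Lung3, whose libraries were not set apart. DPBS 1 of H1437-1 had 3.26% mitochondrial counts, against 1.79% and 1.64% in DPBS 2 and DPBS 3. In bulk RNA, fewer cells of a type and less RNA per cell cannot be told apart.

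All tests below are edgeR's quasi-likelihood test, p was adjusted over all genes of a comparison (Benjamini-Hochberg), and genes with an adjusted p under 0.05 were called. Changes are log2 fold changes ± SE, and 95% intervals are for a single test. Where a group had no IL6 count at all, the fold is a lower bound taken against 3 counts over that group. Reads of a gene and of an overlapping antisense gene were not told apart by the library kit. IL6-AS1 shares 428 exonic bases with IL6, LIF-AS1 shares 92 and LIF-AS2 175 with LIF, and these antisense genes held at most 9, 10 and 45 counts in a library.

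The first question was whether the extract and the joined proteins raise these cytokines in human cells. Members were called higher in 17 of 18 tests, IL6 in 6 of 6, LIF in 6 of 6 and IL11 in 5 of 6. IL6 went the furthest, LIF was intermediate and IL11 moved least. Of all genes, 3.59% were called higher with ALT in H1437-1, 15.8% with WT ALT in H1437-4, 3.63% with Aeg-S/L in H1437-2, 15.4% with Aeg-S/L in H1437-3, 11.6% with WT ALT in H292-1 and 22.1% with Aeg-S/L in H292-2.

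IL6, a cytokine of fever and the acute phase, was not counted in DPBS-treated NCI-H1437. In H1437-1 it stood at 14.9, 34.5 and 35.7 CPM with ALT, and at 0 CPM in each of the 3 DPBS libraries. In H1437-4 it stood at 126 and 85.8 CPM with WT ALT, and at 0 CPM in both DPBS libraries. No IL6 fragment was counted in any of the 9 DPBS libraries of this line, whereas every stimulated library held some. In H1437-2 the level was 91.1 and 90.4 CPM with Aeg-S/L, and in H1437-3 it was 118 and 119 CPM, each against 0 CPM with DPBS. The increases were at least 1040-fold in H1437-1 (adjusted p = 0.00308), 3069-fold in H1437-4 (1.1e-12), 2182-fold in H1437-2 (3.4e-06) and 2683-fold in H1437-3 (3.4e-15).

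NCI-H292 had a low IL6 level before treatment. In H292-1 the level was 70.5 and 66.5 CPM with WT ALT, and 0.270 and 0.455 CPM with DPBS. In H292-2 it was 91.1 and 98.2 CPM with Aeg-S/L, and 0.709 and 0.604 CPM with DPBS. The groups did not overlap, and the changes were 7.69 ± 0.35 (adjusted p = 1.9e-07) and 7.33 ± 0.19 (1.0e-16), or 189-fold and 144-fold between the group means.

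LIF, which acts on stem cells and injured tissue, was expressed in both lines before treatment. In H1437-1 it stood at 18.8, 26.9 and 26.9 CPM with ALT, and at 3.31, 4.78 and 4.14 CPM with DPBS. In H1437-4 it stood at 80.2 and 73.8 CPM with WT ALT, and at 9.58 and 14.3 CPM with DPBS. All stimulated libraries were above all DPBS libraries of their experiment. The changes were 2.64 ± 0.40 (adjusted p = 0.00322) in H1437-1 and 2.77 ± 0.16 (1.0e-09) in H1437-4. With Aeg-S/L, LIF was at 47.6 and 40.8 CPM in H1437-2, against 8.02 and 11.1 CPM with DPBS, a change of 2.31 ± 0.31 (adjusted p = 7.0e-04). In H1437-3 it was at 43.6 and 45.9 CPM with Aeg-S/L, against 11.96 and 10.9 CPM with DPBS, a change of 2.07 ± 0.11 (adjusted p = 3.8e-10). The larger LIF changes were in NCI-H292. There the level was 234 and 221 CPM with WT ALT, against 15.6 and 14.7 CPM with DPBS (4.02 ± 0.13, adjusted p = 1.8e-08), and 275 and 283 CPM with Aeg-S/L, against 16.2 and 15.8 CPM with DPBS (4.29 ± 0.09, adjusted p = 3.5e-18).

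IL11, which acts on fibroblasts and epithelium, was low in NCI-H1437 and higher in NCI-H292. In H1437-4 it stood at 7.36 and 5.18 CPM with WT ALT, and at 1.37 and 1.17 CPM with DPBS, a change of 2.37 ± 0.31 (adjusted p = 2.0e-05). In H1437-1 it stood at 2.52, 3.05 and 3.67 CPM with ALT, and at 0.854, 0.671 and 0.652 CPM with DPBS (2.14 ± 0.35, adjusted p = 0.00549). The groups were apart in every human experiment. With Aeg-S/L the level was 3.46 and 3.13 CPM in H1437-3, against 0.897 and 1.13 CPM with DPBS (1.80 ± 0.27, adjusted p = 9.3e-05). In H1437-2 it was 3.19 and 4.14 CPM with Aeg-S/L, against 1.14 and 1.53 CPM with DPBS. That difference, 1.55 ± 0.54, was not called (adjusted p = 0.108), with a 95% interval from 0.38 to 2.72, although DESeq2 called it (0.0328). In NCI-H292 the level was 25.4 and 28.5 CPM with WT ALT, against 15.9 and 13.6 CPM with DPBS (0.98 ± 0.15, adjusted p = 0.00123), and 37.4 and 32.5 CPM with Aeg-S/L, against 13.6 and 13.1 CPM with DPBS (1.56 ± 0.12, adjusted p = 3.5e-09). In 3 of the 6 stimulus comparisons the mitochondrial share did not overlap between the groups, and its part was not tested. It was 3.26% and 3.45% with Aeg-S/L, against 2.38% and 1.98% with DPBS, in H1437-3. In H292-1 it was 1.02% and 0.986% with WT ALT, against 2.79% and 2.51% with DPBS, and in H292-2 it was 2.05% and 1.82% with Aeg-S/L, against 2.09% and 2.41%.

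**Figure D1:**
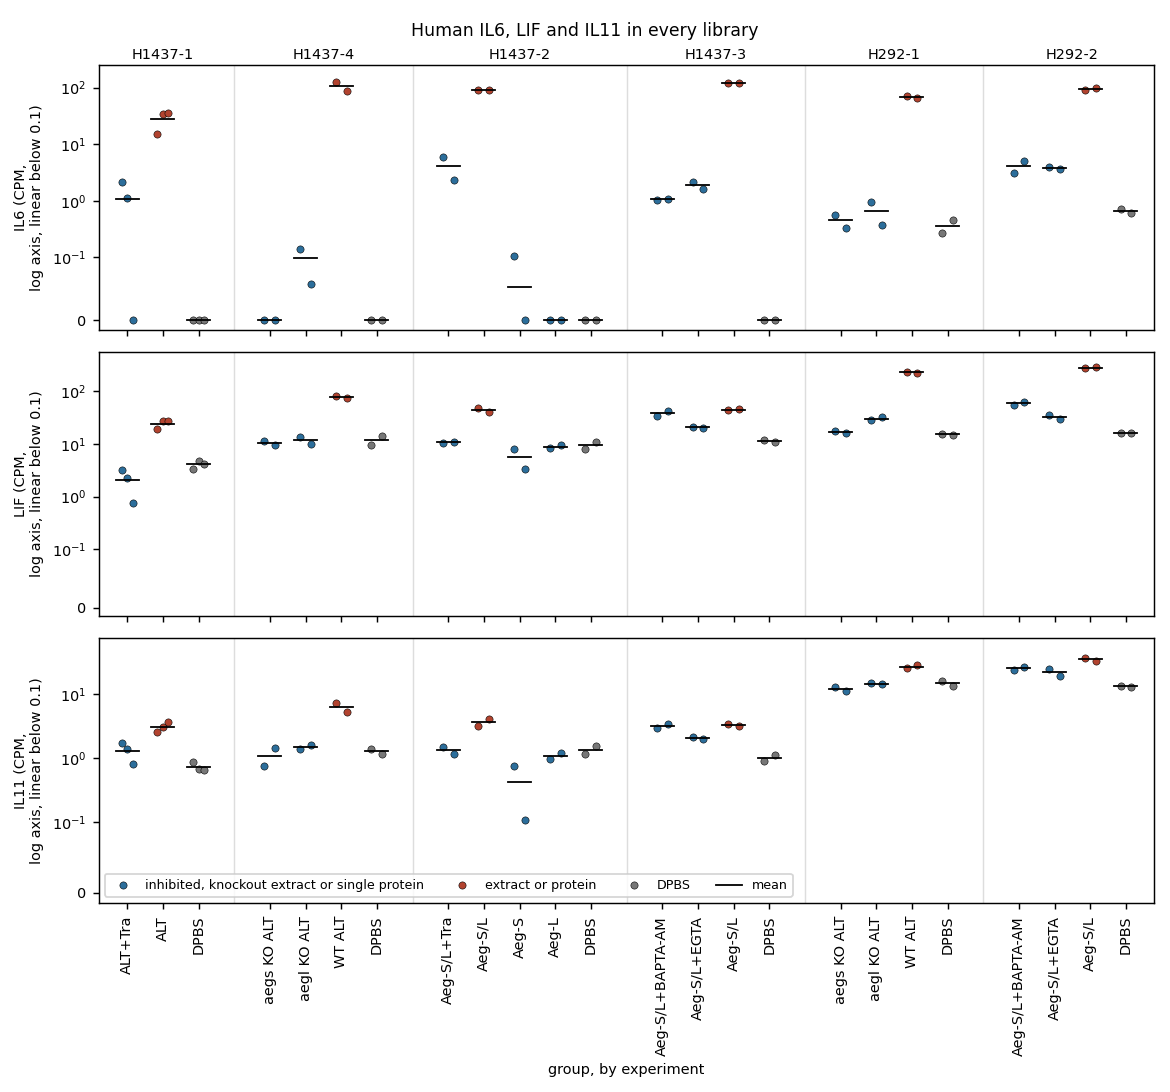
IL6, LIF and IL11 in each human library, in CPM on a log axis that is linear below 0.1, by group within each experiment; points are libraries (blue, inhibited stimulus, knockout extract or single protein; red, extract or joined proteins; grey, DPBS) and bars are group means. All DPBS points of IL6 in NCI-H1437 lie at 0, and the stimulated points lie between 14.9 and 126 CPM.

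Per kilobase, the order of the 3 transcripts changed with treatment. In H1437-3, mean levels were 43.7 FPKM for IL6, 11.3 FPKM for LIF and 1.23 FPKM for IL11 with Aeg-S/L, and 0, 2.88 and 0.38 FPKM with DPBS. In H292-2, they were 70.3 FPKM for LIF, 34.9 FPKM for IL6 and 13.1 FPKM for IL11 with Aeg-S/L, and 4.04, 0.242 and 4.99 FPKM with DPBS. IL6 was thus the lowest of the 3 at rest in both experiments, and stood first in H1437-3 and second in H292-2 after Aeg-S/L. In these 2 experiments the library values of neighbours in this order did not overlap.

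The knockout extracts tested whether Aeg-S and Aeg-L are needed for the response to the extract. All 3 members were called lower with both knockout extracts than with WT ALT, in both lines, in 12 of 12 tests. Of all genes, 14.2% were called lower with aegs KO ALT and 14.5% with aegl KO ALT in H1437-4, and 13.4% and 9.13% in H292-1.

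In H1437-4, IL6 was at 0 CPM in both aegs KO ALT libraries and at 0.139 and 0.0578 CPM with aegl KO ALT, against 126 and 85.8 CPM with WT ALT. It was at least 2599-fold lower with aegs KO ALT (adjusted p = 1.5e-12) and changed by -10.04 ± 0.28 with aegl KO ALT (1.8e-12). In H292-1 it was at 0.571 and 0.335 CPM with aegs KO ALT and at 0.933 and 0.374 CPM with aegl KO ALT, against 70.5 and 66.5 CPM with WT ALT. All knockout extract libraries were far below all WT ALT libraries. The changes against WT ALT in H292-1 were -7.34 ± 0.33 (adjusted p = 2.0e-07) and -6.84 ± 0.33 (3.8e-07). The mitochondrial share was lower with both knockout extracts in H1437-4, at 1.21% to 1.52% against 2.01% and 2.02% with WT ALT, and higher with aegs KO ALT in H292-1, at 2.24% and 2.62% against 0.986% and 1.02%, and its part was not tested.

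LIF in H1437-4 was at 11.3 and 9.54 CPM with aegs KO ALT and at 13.3 and 9.88 CPM with aegl KO ALT, against 80.2 and 73.8 CPM with WT ALT. The changes were -2.96 ± 0.16 (adjusted p = 5.9e-10) and -2.80 ± 0.16 (1.1e-09). In H292-1 LIF was at 17.3 and 16.1 CPM with aegs KO ALT and at 28.0 and 32.1 CPM with aegl KO ALT, against 234 and 221 CPM with WT ALT. The aegl KO libraries were thus above the aegs KO libraries in that line, and both far under WT ALT, at -3.03 ± 0.12 (adjusted p = 1.1e-07) for aegl KO ALT and -3.89 ± 0.13 (1.9e-08) for aegs KO ALT. IL11 in H1437-4 was at 0.744 and 1.43 CPM with aegs KO ALT and at 1.37 and 1.59 CPM with aegl KO ALT, against 7.36 and 5.18 CPM with WT ALT. It changed by -2.59 ± 0.32 (adjusted p = 1.2e-05) and -2.16 ± 0.31 (5.9e-05). In H292-1 it was at 12.8 and 11.1 CPM with aegs KO ALT and at 15.1 and 14.3 CPM with aegl KO ALT, against 25.4 and 28.5 CPM with WT ALT, with changes of -1.295 ± 0.15 (adjusted p = 2.1e-04) and -0.98 ± 0.15 (0.00138).

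Set against DPBS, the knockout extracts and the single proteins gave 1 call in the 16 member tests that could be made, where the unadjusted p was under 0.05 in 4 and DESeq2 called 1. IL6 was at 0 CPM in both groups for aegs KO ALT in H1437-4 and for Aeg-L in H1437-2, so these were not tested. Of all genes, in either direction, 1.08% were called with aegs KO ALT and 0.766% with aegl KO ALT in H1437-4, and 0% and 0.12% in H292-1. With the single proteins in H1437-2, 0% were called with Aeg-S and 0% with Aeg-L. For the comparisons without a call, 308 genes with aegs KO ALT in H292-1, 1491 with Aeg-S and 186 with Aeg-L had an unadjusted p under 0.05, and DESeq2 called 1, 3 and 0 genes.

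The call was LIF with aegl KO ALT in H292-1, at 28.0 and 32.1 CPM against 15.6 and 14.7 CPM with DPBS, a change of 0.9953 ± 0.12 (adjusted p = 0.0125). It was lost without DPBS 1 (adjusted p = 0.227) and without DPBS 2 (0.168). The mitochondrial share of these H292-1 libraries was 0.5545% and 2.26% with aegl KO ALT, against 2.79% and 2.51% with DPBS. Its part in the LIF call was not tested. In H1437-2, IL6 was at 0.107 and 0 CPM with Aeg-S, at 0 CPM with Aeg-L and at 0 CPM with DPBS. LIF was at 8.10 and 3.33 CPM with Aeg-S and at 8.38 and 9.40 CPM with Aeg-L, against 8.02 and 11.1 CPM with DPBS, and IL11 at 0.748 and 0.107 CPM and at 0.949 and 1.19 CPM, against 1.14 and 1.53 CPM. Aeg-S 2, the library with the high mitochondrial share, was the lowest in LIF and IL11. With Aeg-S against DPBS, LIF differed by -0.68 and IL11 by -1.59 (adjusted p = 0.528 each). Without Aeg-S 2 the differences were -0.23 for LIF and -0.82 for IL11 (adjusted p = 0.986 each). Without Aeg-S 1, which leaves the library with the high share to stand for Aeg-S, both were called lower (-1.37, adjusted p = 0.0138, and -3.45, 0.0102).

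The joined proteins were then compared with the sum of the effects of Aeg-S and Aeg-L. Effects were added as log2 changes, so the sum stands for the product of the folds. In H1437-2, mean LIF and IL11 were below DPBS with either protein alone, which lowers the sum. The IL11 change with Aeg-S/L against DPBS was itself not called. In H1437-2, where 1.66% of genes were called above the sum, LIF exceeded it by 3.07 ± 0.43 (adjusted p = 0.00199) and IL11 by 3.44 ± 0.80 (0.0463). IL6 was at 0 in a group of this difference, so no value is given, but its levels were 91.1 and 90.4 CPM with Aeg-S/L and at most 0.107 CPM in a library of a single protein or DPBS. Without Aeg-S 2, LIF exceeded the sum by 2.57 (adjusted p = 0.00268) and IL11 by 2.63 (0.0561). The IL11 call was also lost without Aeg-L 1 (adjusted p = 0.149), Aeg-S/L 1 (0.153), Aeg-S/L 2 (0.165), DPBS 1 (0.103) or DPBS 2 (0.150), and the excess was 5.32 without Aeg-S 1.

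The inhibitor and the chelators, each given with a stimulus, were then set against that stimulus alone. Members were called lower than with the stimulus alone in 16 of 18 tests, IL6 in 6 of 6, LIF in 6 of 6 and IL11 in 4 of 6. IL6 had the largest log2 fall under every agent, and it had also risen the most with the stimulus. The order of falls is thus not an order of return to the DPBS level. No agent took IL6 to 0 in all libraries. Of all genes, 3.75% were called lower with ALT+Tra in H1437-1 and 1.15% with Aeg-S/L+Tra in H1437-2. With the chelators, 16.1% were called lower with BAPTA-AM and 14.8% with EGTA in H1437-3, and 20.3% and 21.7% in H292-2.

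In H1437-1, IL6 was at 2.16, 1.11 and 0 CPM with ALT+Tra, against 14.9, 34.5 and 35.7 CPM with ALT. LIF was at 3.16, 2.2004 and 0.745 CPM with ALT+Tra, against 18.8, 26.9 and 26.9 CPM with ALT, and IL11 at 1.72, 1.39 and 0.800 CPM, against 2.52, 3.05 and 3.67 CPM. No library of one group reached the other, and ALT+Tra 3 was the lowest each time. The changes were -4.77 ± 0.91 for IL6 (adjusted p = 0.0198), -3.65 ± 0.42 for LIF (6.2e-04) and -1.31 ± 0.34 for IL11 (0.0487). Without ALT+Tra 3 they were -4.20 (adjusted p = 0.00875), -3.25 (6.2e-04) and -1.06 (0.111). The IL6 call was lost without ALT 2 (adjusted p = 0.0759), ALT 3 (0.0782) or ALT+Tra 2 (0.111), and under DESeq2 (0.0747). The IL11 call was also lost without ALT 1 (adjusted p = 0.106), ALT 2 (0.174), ALT 3 (0.236) or ALT+Tra 2 (0.140). Fitting the replicate number as a block lost it too.

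In H1437-2, IL6 was at 5.86 and 2.31 CPM with Aeg-S/L+Tra, against 91.1 and 90.4 CPM with Aeg-S/L, a change of -4.53 ± 0.43 (adjusted p = 2.9e-04). LIF was at 10.4 and 10.99 CPM, against 47.6 and 40.8 CPM, a change of -2.10 ± 0.31 (adjusted p = 0.00292). LIF was thus within the range of its DPBS libraries, while IL6 stayed above them. The LIF call was lost without Aeg-S/L+Tra 1 (adjusted p = 0.105), Aeg-S/L+Tra 2 (0.0549) or Aeg-S/L 1 (0.0504), with changes from -2.14 to -1.96. IL11 was at 1.49 and 1.16 CPM with Aeg-S/L+Tra, against 3.19 and 4.14 CPM with Aeg-S/L, a difference of -1.52 ± 0.54 that was not called (adjusted p = 0.326).

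In H1437-3, IL6 was at 1.02 and 1.08 CPM with Aeg-S/L+BAPTA-AM and at 2.16 and 1.59 CPM with Aeg-S/L+EGTA, against 118 and 119 CPM with Aeg-S/L. The changes were -6.94 ± 0.14 (adjusted p = 1.3e-14) and -6.08 ± 0.13 (3.2e-14). LIF was at 34.0 and 41.8 CPM with BAPTA-AM and at 21.4 and 19.9 CPM with EGTA, against 43.6 and 45.9 CPM with Aeg-S/L. The chelators thus left LIF nearer to its stimulated level than IL6, with changes of -0.37 ± 0.10 for BAPTA-AM (adjusted p = 0.0114) and -1.20 ± 0.10 for EGTA (3.3e-07). The LIF call with BAPTA-AM was lost without Aeg-S/L 2 (adjusted p = 0.105) or Aeg-S/L+BAPTA-AM 1 (0.164, with a change of -0.23). IL11 was at 2.93 and 3.37 CPM with BAPTA-AM and at 2.16 and 1.996 CPM with EGTA, against 3.46 and 3.13 CPM with Aeg-S/L. BAPTA-AM gave no call for it (-0.19 ± 0.25, 95% interval -0.72 to 0.33, adjusted p = 0.628), and EGTA did (-0.75 ± 0.25, adjusted p = 0.0346). That IL11 call was lost under DESeq2 (adjusted p = 0.0585), and without Aeg-S/L 1 (0.167), Aeg-S/L 2 (0.0869), Aeg-S/L+EGTA 1 (0.0951) or Aeg-S/L+EGTA 2 (0.145).

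In H292-2, IL6 was at 3.13 and 4.98 CPM with Aeg-S/L+BAPTA-AM and at 3.98 and 3.62 CPM with Aeg-S/L+EGTA, against 91.1 and 98.2 CPM with Aeg-S/L. LIF was at 55.7 and 61.6 CPM and at 35.2 and 29.2 CPM, against 275 and 283 CPM. Both genes were far below the stimulated level, with changes of -4.72 ± 0.14 (adjusted p = 1.9e-15) and -4.76 ± 0.15 (3.9e-15) for IL6, and of -2.44 ± 0.08 (2.8e-15) and -3.23 ± 0.08 (1.5e-16) for LIF. IL11 was at 24.2 and 26.8 CPM with BAPTA-AM and at 25.2 and 19.6 CPM with EGTA, against 37.4 and 32.5 CPM with Aeg-S/L. Its changes were -0.64 ± 0.11 (adjusted p = 1.6e-04) and -0.76 ± 0.12 (2.5e-05). The share of counts on the mitochondrial chromosome was also lower, without overlap, in 5 of these 6 comparisons. In H1437-3 it was 1.15% and 0.796% with BAPTA-AM and 2.29% and 2.34% with EGTA, against 3.26% and 3.45% with Aeg-S/L. In H292-2 it was 0.190% and 0.217% with BAPTA-AM and 1.40% and 1.06% with EGTA, against 2.05% and 1.82% with Aeg-S/L. In H1437-2 it was 2.29% and 2.26% with Aeg-S/L+Tra, against 2.75% and 3.16% with Aeg-S/L. Its part in the results was not tested.

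**Figure D2:**
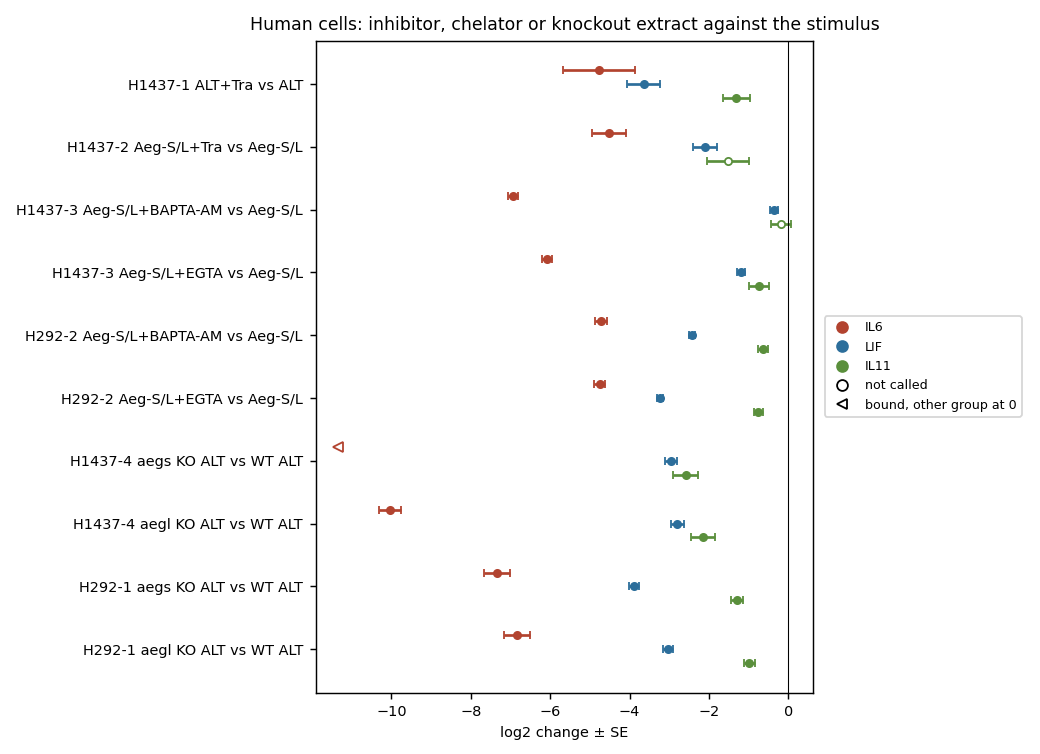
Log2 change ± SE of IL6, LIF and IL11 in human cells with an inhibitor, a chelator or a knockout extract against the stimulus of the same experiment; filled points were called and open points were not, and the hollow triangle is a bound because IL6 had no counts with aegs KO ALT in H1437-4. IL6 has the most negative value in each comparison, from -4.53 to -10.04 among the fitted ones, and IL11 the least negative.

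BAPTA-AM and EGTA, a cell-entering chelator and one that stays outside, were compared with each other at the same time point, with no doses given. Of 6 tests of the 3 genes in 2 lines, 3 were called, among 37.7% of all genes called in either direction in H1437-3 and 46.6% in H292-2. LIF was higher with BAPTA-AM in both lines, by 0.84 ± 0.10 in H1437-3 (adjusted p = 9.2e-06) and by 0.80 ± 0.08 in H292-2 (1.0e-07), with no overlap between libraries. IL6 was lower with BAPTA-AM in H1437-3, with a difference of -0.86 ± 0.20 (adjusted p = 0.00299). That call was lost without Aeg-S/L+EGTA 1 (-0.64, adjusted p = 0.0503). In H292-2 the IL6 difference was 0.03 ± 0.17, with a 95% interval from -0.33 to 0.40 (adjusted p = 0.893). IL11 differed by 0.56 ± 0.25 in H1437-3 (95% interval 0.02 to 1.10, adjusted p = 0.0990) and by 0.12 ± 0.12 in H292-2 (-0.12 to 0.37, adjusted p = 0.428). The H292-2 difference was called without Aeg-S/L+EGTA 1 (0.31, adjusted p = 0.0341).

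Inhibited and chelated cells were also compared with DPBS. No group received an agent without a stimulus, so a remaining response and an effect of the agent itself cannot be told apart here. Members were called higher in 13 of 18 tests, IL6 in 5 of 6, and LIF and IL11 in 4 of 6 each. Of all genes, 0.123% were called higher with ALT+Tra in H1437-1 and 0.478% with Aeg-S/L+Tra in H1437-2. With Aeg-S/L, 15% were called higher under BAPTA-AM and 4.19% under EGTA in H1437-3, and 17.6% and 20.1% in H292-2.

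IL6 was at least 98.3-fold above DPBS with Aeg-S/L+Tra in H1437-2 (adjusted p = 0.00118). In H1437-3 it was at least 23.8-fold above DPBS with BAPTA-AM (7.3e-07) and at least 42.4-fold with EGTA (1.3e-07). In H292-2 it was 6.17-fold above DPBS with BAPTA-AM (2.61 ± 0.24, adjusted p = 6.5e-08) and 5.79-fold with EGTA (2.58 ± 0.25, 1.3e-07). With ALT+Tra in H1437-1, 2 of 3 libraries held IL6 and the difference was not called (adjusted p = 0.182). It was called without ALT+Tra 3 (adjusted p = 0.0304) and by DESeq2 (0.0236).

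LIF with Tra was not called against DPBS. It was 3.16, 2.2004 and 0.745 CPM with ALT+Tra, against 3.31, 4.78 and 4.14 CPM with DPBS (-1.005 ± 0.39, 95% interval -1.87 to -0.14, adjusted p = 0.298), and -0.63 without ALT+Tra 3 (0.383). With Aeg-S/L+Tra the difference was 0.21 ± 0.30 (95% interval -0.45 to 0.86, adjusted p = 0.813). With the chelators LIF stayed above DPBS, by 1.71 ± 0.11 with BAPTA-AM (adjusted p = 1.1e-08) and 0.87 ± 0.11 with EGTA (7.6e-05) in H1437-3, and by 1.85 ± 0.09 (3.0e-12) and 1.05 ± 0.09 (2.0e-08) in H292-2.

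Against DPBS, IL11 was called with the chelators and not with Tra, as was LIF. With Tra it differed from DPBS by 0.82 ± 0.35 in H1437-1 (adjusted p = 0.312, and 1.06 with 0.244 without ALT+Tra 3) and by 0.03 ± 0.54 in H1437-2 (0.989). With BAPTA-AM it was above DPBS by 1.61 ± 0.27 in H1437-3 (adjusted p = 2.3e-04) and 0.92 ± 0.12 in H292-2 (6.3e-06). With EGTA it was above DPBS by 1.05 ± 0.28 in H1437-3 (adjusted p = 0.0389) and 0.80 ± 0.12 in H292-2 (4.6e-05). The H1437-3 call with EGTA was lost without Aeg-S/L+EGTA 1 (adjusted p = 0.177), Aeg-S/L+EGTA 2 (0.116), DPBS 1 (0.230) or DPBS 2 (0.0575).

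The responses of NCI-H292 and NCI-H1437 were compared in joint fits of experiments with the same treatments. The lines were run as separate experiments, so line and experiment cannot be told apart. Of 10 tests that could be made, 7 were called. Of all genes, in either direction, 8.9% were called for WT ALT, 14.3% for Aeg-S/L, 11% for BAPTA-AM against Aeg-S/L and 14.4% for EGTA against Aeg-S/L. IL6 had no counts in DPBS of NCI-H1437, so its 2 stimulus differences are not given.

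LIF responded more in NCI-H292, by 1.22 ± 0.22 for WT ALT (adjusted p = 0.00224) and 2.23 ± 0.14 for Aeg-S/L (4.2e-11). IL11 responded less to WT ALT in NCI-H292, with a difference of -1.42 ± 0.31 (adjusted p = 0.00835), a call lost without DPBS 2 of H1437-4 (-1.27, adjusted p = 0.0551) or WT ALT 1 of H1437-4 (-1.16, at the threshold with 0.05001). For Aeg-S/L the IL11 difference was -0.23 ± 0.25 (95% interval -0.74 to 0.29, adjusted p = 0.630).

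The chelator effects differed between the lines in opposite directions for IL6 and LIF. BAPTA-AM lowered IL6 less in NCI-H292 than in NCI-H1437, by a difference of 2.17 ± 0.24 (adjusted p = 1.3e-06), and lowered LIF more, with a difference of -2.11 ± 0.13 (3.2e-11). EGTA did the same, with 1.31 ± 0.23 for IL6 (adjusted p = 3.1e-04) and -2.04 ± 0.13 for LIF (7.6e-11). The IL11 differences were -0.49 ± 0.21 for BAPTA-AM (adjusted p = 0.162) and -0.02 ± 0.24 for EGTA (0.9999). The distance from the stimulated to the DPBS level also differed between the lines. With DPBS, IL6 was at 0 CPM in H1437-3 and at 0.709 and 0.604 CPM in H292-2. LIF had risen by 2.07 with Aeg-S/L in H1437-3 and by 4.29 in H292-2. The part of these distances in the chelator differences was not tested.

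Receptors, signalling genes and targets of the gp130 pathway were described from a list of 37 human genes. In the 6 stimulus comparisons, 29 to 31 of them were tested, and 9 to 17 were called higher and 0 to 5 lower. The share of all genes called higher ran from 3.59% with ALT in H1437-1 to 22.1% with Aeg-S/L in H292-2. Of all genes, 1.13% were called lower with ALT in H1437-1, 17.1% with WT ALT in H1437-4, 3.1% with Aeg-S/L in H1437-2, 15.8% with Aeg-S/L in H1437-3, 11.3% with WT ALT in H292-1 and 21.1% with Aeg-S/L in H292-2. In H1437-1 with ALT, 9 were called higher and 0 lower of 29, with a median change of 0.70 against -0.03 over all genes. In H292-2 with Aeg-S/L, 13 were called higher and 5 lower of 31, with a median of 0.22. Of the 13 feedback and STAT3 target genes, 10 or 11 were tested, and 3 to 8 were called higher and 0 or 1 lower. Of the 4 regulators of IL6 mRNA, 3 or 4 were called higher. Of 6 receptors tested, 0 to 3 were called higher and 0 to 2 lower, of 6 signalling genes 0 to 2 and 0 to 3, and of the 2 to 5 other ligands and subunits tested 0 to 2 and 0 or 1. These last groups are too small to be set against the share of all genes.

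Among the feedback and target genes, SOCS3, the inhibitor of gp130 signalling, was called higher in 6 of 6 comparisons, with changes of 1.91 to 4.11. MCL1, a survival factor, was called higher in 6 of 6 (2.01 to 2.43), and CEBPD and PIM1, a transcription factor and a kinase induced by STAT3, in 5 of 6 each. JUNB, a subunit of AP-1, went opposite ways by line. It was called higher in the 4 NCI-H1437 experiments (2.06 to 2.62) and lower in both NCI-H292 experiments (-0.81 in H292-1 and -0.39 in H292-2). Among the regulators of IL6 mRNA, ZFP36 was called higher in 6 of 6 (3.43 to 4.01) and ZC3H12A in 6 of 6 (0.66 to 3.40). Both encode proteins known to shorten the life of cytokine mRNAs. ARID5A, known to stabilise IL6 mRNA, was called higher in 4 of 6, those in NCI-H1437, with values of -0.11 and -0.08 in NCI-H292.

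The receptors moved in both directions. IL6R was called lower in 5 of 6 comparisons, with -2.54 in H292-1, and stood at 0.54 without a call in H1437-1. IL6ST, gp130 itself, was called higher in 3 of 6 (0.23 to 0.70 over all comparisons), IL27RA in 4 of 6, and IL11RA was called lower in 1 (-1.31 in H292-2). LIFR stood between -0.30 and 0.47, with adjusted p from 0.149 to 0.661. Of the other ligands of the family, CLCF1 was called higher in 5 of 6 (0.80 to 2.17).

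**Figure D3:**
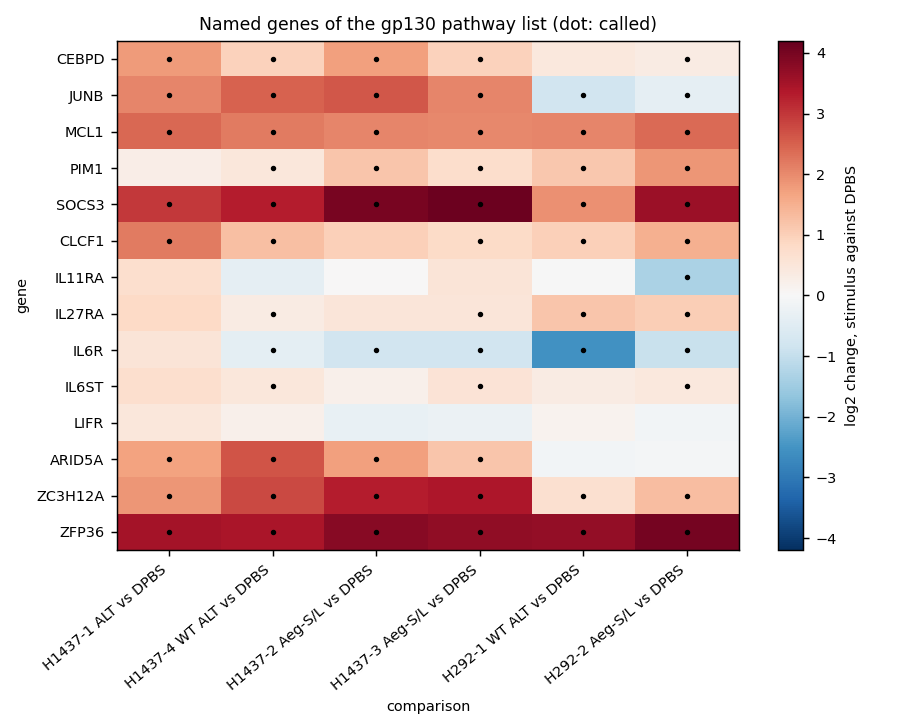
Log2 change of the named genes of the gp130 pathway list with the stimulus against DPBS in the 6 human experiments, red for higher and blue for lower with the stimulus; a dot marks a call. SOCS3, MCL1, ZC3H12A and ZFP36 carry a dot in all columns, and JUNB is red in NCI-H1437 and blue in NCI-H292.

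The list was also counted for the inhibitor, the chelators and the knockout extracts against the stimulus. Some counts were near the share of all genes, such as 5 of 30 called higher with EGTA in H1437-3, against 15.8%. With Tra against the stimulus, 0 of 29 pathway genes were called higher and 10 lower in H1437-1, against 1.33% and 3.75% of all genes, and without ALT+Tra 3 these were 0 and 11. In H1437-2, 0 of 30 were called higher and 6 lower, against 0.124% and 1.15% of all genes, and ZFP36 changed by -2.71, ZC3H12A by -2.24, SOCS3 by -1.85, MCL1 by -1.83 and JUNB by -1.71. With BAPTA-AM, 3 were called higher and 14 lower of 30 in H1437-3, against 11.6% and 16.1% of all genes, and 3 and 18 of 31 in H292-2, against 17.6% and 20.3%. SOCS3 changed by -3.19 with BAPTA-AM in H1437-3 and by -2.90 in H292-2, ZFP36 by -3.49 and -4.52, and IL6R by -2.14 and -3.11. With EGTA, 5 were called higher and 14 lower of 30 in H1437-3, against 15.8% and 14.8% of all genes, and 11 and 10 of 31 in H292-2, against 23.2% and 21.7%, with SOCS3 at -2.11 and -4.04 and IL6R at 0.84 and 0.61. With aegs KO ALT against WT ALT, 2 were called higher and 16 lower of 29 in H1437-4 (15.7% and 14.2% of all genes), and 3 and 10 of 31 in H292-1 (13.2% and 13.4%). With aegl KO ALT, 1 was called higher and 16 lower of 29 in H1437-4 (16.2% and 14.5% of all genes), and 4 and 9 of 31 in H292-1 (9.85% and 9.13%).

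In mice, the same question was asked of lung epithelial cells isolated after treatment of the airways. Il6 and Lif were called higher in 12 of 12 comparisons each and Il11 in 0 of 12 in edgeR, 24 of 36 tests in all. No Il11 test had an unadjusted p under 0.05, and DESeq2 called 0. Of all genes, 28.5% were called higher with ALT in Lung1, 15.5% with WT ALT in Lung3, 19.1% with Aeg-S/L in Lung2, and 32%, 32.8% and 33.1% with lysenin, PlyA2EryB and LSL in Lung4. In the knockout mice, 2.4% were called higher with ALT and 6.4% with Aeg-S/L in IL33KO1, 20.7%, 25.7% and 19.5% with lysenin, PlyA2EryB and LSL in IL33KO2, and 33.7% with Aeg-S/L in Rag2gc. The mitochondrial share was lower without overlap in 1 of the 12 comparisons, ALT in Lung1 (2.44% to 2.81%, against 3.18% to 4.28% with DPBS). It was higher in 4, among them PlyA2EryB in Lung4 (4.11% and 4.34%, against 2.88% and 3.54%), and its part was not tested.

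Il6 stood at 30.6, 34.4 and 29.3 CPM with ALT in Lung1, against 1.79, 3.56 and 3.22 CPM with DPBS (3.53 ± 0.20, adjusted p = 3.2e-08). In Lung3 it stood at 35.5 and 43.1 CPM with WT ALT, against 2.18 and 3.07 CPM with DPBS (3.88 ± 0.33, adjusted p = 1.2e-04). In Lung2 it stood at 104 and 114 CPM with Aeg-S/L, against 1.81 and 2.42 CPM with DPBS (5.83 ± 0.30, adjusted p = 2.6e-05). Unlike in NCI-H1437, Il6 had counts in every DPBS library of the mice. In Lung4 it stood at 43.1 and 42.3 CPM with lysenin, 60.1 and 61.1 CPM with PlyA2EryB and 40.9 and 45.4 CPM with LSL, against 1.14 and 0.817 CPM with DPBS. The changes there were 5.30 ± 0.11 (adjusted p = 6.1e-18), 5.82 ± 0.10 (1.0e-18) and 5.27 ± 0.11 (3.7e-18).

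In IL-33 knockout mice, Il6 stood at 12.3 and 7.46 CPM with ALT and 38.0 and 34.3 CPM with Aeg-S/L, against 0.894 and 2.05 CPM with DPBS. The changes were 2.68 ± 0.46 (adjusted p = 0.0396) and 4.58 ± 0.49 (0.00779), and without DPBS 1 they were 2.14 (0.0322) and 4.05 (0.0115). The Il6 call with ALT was lost without ALT 1 (adjusted p = 0.246) or ALT 2 (3.02, 0.0731). In IL33KO2 the level was 15.6 and 14.0 CPM with lysenin, 74.9 and 77.6 CPM with PlyA2EryB and 18.8 and 18.2 CPM with LSL, against 0.783 and 2.16 CPM with DPBS. The changes were 3.25 ± 0.30 (adjusted p = 1.6e-04), 5.73 ± 0.31 (7.2e-06) and 3.55 ± 0.30 (1.0e-04). In Rag2gc mice it was 105 and 117 CPM with Aeg-S/L, against 0.282 and 0.509 CPM with DPBS, 280.5-fold between the means (8.11 ± 0.13, adjusted p = 9.9e-11). No stimulated library reached into the range of its DPBS group in any of the 12 comparisons.

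Lif stood at 38.5, 43.1 and 34.3 CPM with ALT in Lung1, against 4.57, 3.62 and 3.72 CPM with DPBS (3.34 ± 0.14, adjusted p = 2.2e-09). In Lung3 it stood at 50.8 and 49.2 CPM with WT ALT, against 3.42 and 1.93 CPM with DPBS (4.23 ± 0.26, adjusted p = 4.1e-05). In Lung2 it stood at 78.8 and 66.4 CPM with Aeg-S/L, against 2.07 and 3.96 CPM with DPBS (4.73 ± 0.41, adjusted p = 1.7e-04). Groups did not overlap for Lif either. In Lung4 it stood at 10.9 and 10.1 CPM with lysenin, 19.1 and 19.8 CPM with PlyA2EryB and 20.7 and 19.1 CPM with LSL, against 0.595 and 0.980 CPM with DPBS (3.61 ± 0.15, 4.52 ± 0.15 and 4.48 ± 0.15, largest adjusted p = 2.7e-13).

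In IL33KO1, Lif stood at 7.34 and 7.41 CPM with ALT and 15.1 and 15.4 CPM with Aeg-S/L, against 0.840 and 0.964 CPM with DPBS (2.99 ± 0.26, adjusted p = 0.00797, and 4.07 ± 0.27, 0.00172). The ALT call was lost without ALT 1 (2.93, adjusted p = 0.0750), and without DPBS 1 the changes were 2.79 (0.00872) and 3.90 (0.00292). In IL33KO2 it stood at 7.18 and 8.34 CPM with lysenin, 18.2 and 18.9 CPM with PlyA2EryB and 5.33 and 4.86 CPM with LSL, against 1.19 and 1.68 CPM with DPBS. The changes were 2.37 ± 0.19 (adjusted p = 6.8e-05), 3.75 ± 0.19 (5.6e-06) and 1.75 ± 0.19 (3.2e-04). LSL gave the smallest of the 12 Lif changes and Aeg-S/L in Rag2gc the largest, 5.95 ± 0.10 (adjusted p = 1.4e-10), with 44.8 and 48.3 CPM against 0.730 and 0.725 CPM with DPBS.

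Il11 was low in all mouse groups, with library values from 0.186 to 1.60 CPM. With ALT in Lung1 it stood at 1.16, 0.899 and 0.480 CPM, against 0.394, 0.724 and 0.186 CPM with DPBS, and the groups overlapped (1.02 ± 0.55, 95% interval -0.18 to 2.22, adjusted p = 0.133). With Aeg-S/L in Lung2 it stood at 0.929 and 1.60 CPM, against 0.800 and 0.393 CPM with DPBS, without overlap (1.20 ± 0.54, 95% interval -0.05 to 2.45, adjusted p = 0.117). Stimulated libraries were also all above DPBS, without a call, with WT ALT in Lung3 and PlyA2EryB in Lung4. The same held for PlyA2EryB and LSL in IL33KO2 and for Aeg-S/L in Rag2gc. With lysenin in Lung4 they were all below DPBS, and in the remaining comparisons the groups overlapped. Over the 12 comparisons the changes ran from -0.68 to 1.20 and the upper bounds of their 95% intervals from 0.11 to 2.45. In IL33KO1 they were 0.09 with ALT and 0.31 with Aeg-S/L, and -0.39 and -0.15 without DPBS 1 (adjusted p = 0.641 and 0.862). Leaving out a library gave calls in IL33KO2 without DPBS 2, for PlyA2EryB (1.33, adjusted p = 0.00645) and LSL (1.23, 0.0139), and in Lung4 without lysenin 2, where lysenin was called lower (-1.26, adjusted p = 0.0458).

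**Figure D4:**
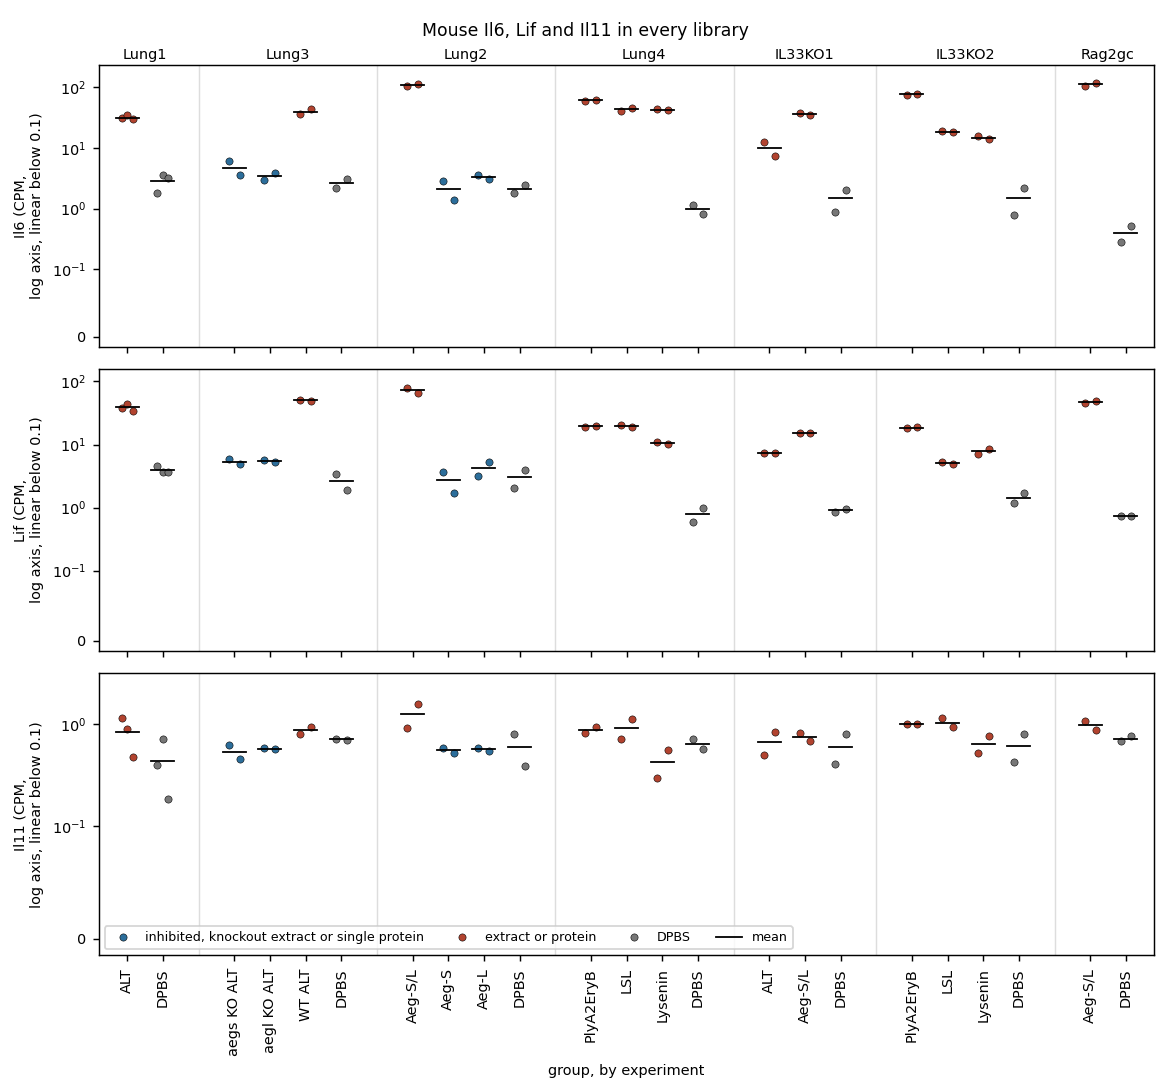
Il6, Lif and Il11 in each mouse library, in CPM on a log axis that is linear below 0.1, by group within each experiment; points are libraries (blue, knockout extract or single protein; red, extract or pore-forming protein; grey, DPBS) and bars are group means. The red points of Il6 and Lif lie above all grey points of their experiment, while those of Il11 lie among or near them.

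Per kilobase, Il6 led after the proteins and Lif stood second. In Lung2 mean levels were 44.9 FPKM for Il6, 16.7 FPKM for Lif and 0.608 FPKM for Il11 with Aeg-S/L, and 0.871, 0.694 and 0.287 FPKM with DPBS. The library values did not overlap between Il6 and Lif with Aeg-S/L.

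The knockout extracts were compared with WT ALT in Lung3. There the mitochondrial share was 3.05% to 3.37% with the knockout extracts, against 2.69% and 2.45% with WT ALT and 3.01% and 2.40% with DPBS. Its range with the knockout extracts lay above the others, and its part was not tested. Members were called lower in 4 of 6 tests, Il6 and Lif with both extracts, among 13.2% of all genes called lower with aegs KO ALT and 12.7% with aegl KO ALT. Il6 was at 5.98 and 3.52 CPM with aegs KO ALT and 3.01 and 3.92 CPM with aegl KO ALT, against 35.5 and 43.1 CPM with WT ALT (-3.07 ± 0.32, adjusted p = 3.1e-04, and -3.53 ± 0.32, 2.2e-04). Lif was at 5.83 and 4.87 CPM and at 5.78 and 5.32 CPM, against 50.8 and 49.2 CPM (-3.25 ± 0.25, adjusted p = 9.4e-05, and -3.20 ± 0.25, 1.2e-04). Il11 was at 0.625 and 0.451 CPM and at 0.586 and 0.572 CPM, against 0.811 and 0.940 CPM with WT ALT, and gave no call (-0.73 ± 0.53, adjusted p = 0.344, and -0.62 ± 0.53, 0.425).

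Against DPBS, the knockout extracts in Lung3 and the single proteins in Lung2 gave 0 calls among 12 member tests in edgeR. Of these, 4 had an unadjusted p under 0.05, and DESeq2 called 0. Of all genes, 0% were called with aegs KO ALT and 0% with aegl KO ALT in Lung3, and 0% with Aeg-S and 0% with Aeg-L in Lung2. In the same order, 1063, 979, 1178 and 599 genes had an unadjusted p under 0.05, and DESeq2 called 12, 26, 13 and 10.

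Lif with the knockout extracts was above both DPBS libraries, at 5.83 and 4.87 CPM with aegs KO ALT and 5.78 and 5.32 CPM with aegl KO ALT, against 3.42 and 1.93 CPM with DPBS. The differences were 0.98 ± 0.25 (95% interval 0.42 to 1.54, adjusted p = 0.726) and 1.03 ± 0.25 (0.47 to 1.59, 0.727). Without DPBS 1 both were called, at 1.37 (adjusted p = 6.7e-04) and 1.42 (5.3e-04). Il6 differed by 0.81 ± 0.31 with aegs KO ALT (adjusted p = 0.726) and 0.35 ± 0.32 with aegl KO ALT (0.743).

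With the single proteins in Lung2, Il6 was at 2.82 and 1.38 CPM with Aeg-S and 3.60 and 3.06 CPM with Aeg-L, against 1.81 and 2.42 CPM with DPBS. Lif was at 3.67 and 1.73 CPM with Aeg-S and 3.15 and 5.23 CPM with Aeg-L, against 2.07 and 3.96 CPM. The joined proteins exceeded the sum of these effects, among 11.1% of all genes called above it, by 5.09 ± 0.40 for Il6 (adjusted p = 4.3e-04) and 4.32 ± 0.55 for Lif (0.00241). The Il11 excess was 1.30 ± 0.78 (95% interval -0.50 to 3.09, adjusted p = 0.271).

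The 3 pore-forming proteins of Lung4 were compared with each other at the same time point, with no doses given. Their mitochondrial shares did not overlap, at 3.28% and 3.35% with lysenin, 4.34% and 4.11% with PlyA2EryB, and 3.14% and 3.21% with LSL. The part of this share was not tested. Of 9 member tests, 5 were called, among 22.7% of all genes for PlyA2EryB against lysenin, 26.7% for LSL against lysenin and 33.4% for LSL against PlyA2EryB. PlyA2EryB raised Il6 more than lysenin, by 0.52 ± 0.06 (adjusted p = 8.5e-06), and LSL raised it less than PlyA2EryB, with a difference of -0.55 ± 0.06 (1.8e-06). LSL and lysenin differed in Il6 by -0.03 ± 0.06 (95% interval -0.16 to 0.10, adjusted p = 0.788). For Lif, PlyA2EryB was above lysenin by 0.90 ± 0.10 (adjusted p = 5.1e-06) and LSL above lysenin by 0.87 ± 0.10 (3.3e-06), whereas LSL and PlyA2EryB differed by -0.03 ± 0.10 (95% interval -0.24 to 0.17, 0.833). LSL was thus not told apart from lysenin for Il6, nor from PlyA2EryB for Lif. Il11 was above lysenin with LSL by 1.05 ± 0.36 (adjusted p = 0.0388), a call lost under DESeq2 (0.0905) and without LSL 2 (0.65, 0.407) or lysenin 1 (0.71, 0.264), and the value was 1.62 without lysenin 2. The Il11 difference between PlyA2EryB and lysenin was 1.01 ± 0.36 (adjusted p = 0.0536), and it was called without lysenin 2 (1.58, 0.0448).

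**Figure D5:**
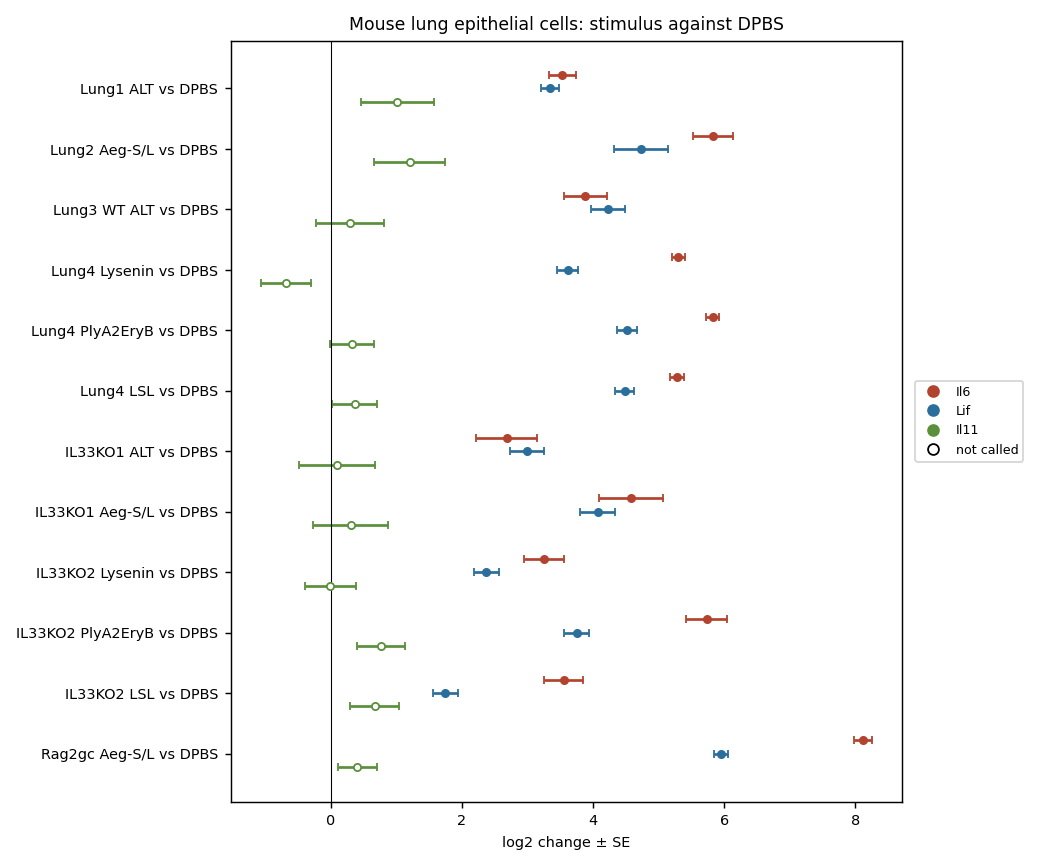
Log2 change ± SE of Il6, Lif and Il11 in mouse lung epithelial cells with each stimulus against DPBS of the same experiment; filled points were called and open points were not. Il6 runs from 2.68 to 8.11, Lif from 1.75 to 5.95 and Il11 from -0.68 to 1.20.

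The responses of knockout mice were set against those of other mice given the same treatment, in joint fits. Each pair came from separate experiments, so genotype and experiment cannot be told apart, and Lung1 and Lung2 carry no genotype label. Of 18 member tests, 5 were called. Of all genes, in either direction, 13.5% were called for ALT between IL33KO1 and Lung1, 8.61% for Aeg-S/L between IL33KO1 and Lung2, and 7.58% for Aeg-S/L between Rag2gc and Lung2. Between IL33KO2 and Lung4, 14.5% were called for lysenin, 14.7% for PlyA2EryB and 22.6% for LSL.

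Il6 responded less in IL33KO2 than in Lung4 to lysenin (-2.05 ± 0.37, adjusted p = 0.00263) and to LSL (-1.73 ± 0.37, 0.00375), and the PlyA2EryB response differed by -0.10 ± 0.36 (95% interval -0.88 to 0.67, 0.882). These values moved with DPBS 2 of IL33KO2, the library with 2.16 CPM. Without it they were -1.09 (adjusted p = 0.00730), -0.77 (0.0483) and 0.87 (0.0156), and without DPBS 1 the PlyA2EryB difference was -0.62 (0.0337). Lif responded less to lysenin (-1.23 ± 0.27, adjusted p = 0.00809) and to LSL (-2.74 ± 0.27, 8.7e-06), and differed by -0.77 ± 0.26 for PlyA2EryB (0.0616). The Lif call for lysenin was lost without DPBS 1 of Lung4 (-0.92, adjusted p = 0.0525). The PlyA2EryB difference was called without DPBS 1 of IL33KO2 (-0.99, 0.00570) or DPBS 2 of Lung4 (-1.12, 0.0211).

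Il6 responded more to Aeg-S/L in Rag2gc than in Lung2, by 2.202 ± 0.39 (adjusted p = 0.00831). Stimulated levels overlapped, at 105 and 117 CPM in Rag2gc and 104 and 114 CPM in Lung2, and the DPBS levels differed, at 0.282 and 0.509 CPM in Rag2gc and 1.81 and 2.42 CPM in Lung2. The call was lost without the Rag2gc DPBS library at 0.282 CPM (1.85, adjusted p = 0.0619). The Lif difference was 1.14 ± 0.47 (95% interval 0.10 to 2.18, adjusted p = 0.178). In IL33KO1, Il6 differed by -1.19 ± 0.56 from Lung2 for Aeg-S/L (adjusted p = 0.195) and by -0.83 ± 0.50 from Lung1 for ALT (0.317), and Lif by -0.60 ± 0.51 (0.482) and -0.34 ± 0.26 (0.442). Without DPBS 1 of IL33KO1 the Il6 differences were -1.68 (adjusted p = 0.0615) and -1.33 (0.0506), and the Lif differences -0.74 (0.485) and -0.485 (0.286). The Il11 differences from Lung2 and Lung1 were -0.84 and -0.90, and -1.27 and -1.34 without that library. Il11 was called in 0 of the 6 differences in edgeR, with 0 at an unadjusted p under 0.05 and 0 in DESeq2.

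Genes with the most similar pattern were ranked by Pearson's r of log2(CPM + 0.5) minus DPBS over the 18 treated human groups, which share DPBS groups and experiments, among 15418 genes. For IL6 they were CXCL2 (0.983), CXCL3 (0.983) and CCL20 (0.971), which are chemokines, CCNL1 (0.979) and CSRNP1 (0.970). For LIF they were PLK3 (0.965), YRDC (0.960), an identifier without a name, FOSL1 (0.943) and BRD9 (0.924). For IL11 they were TRAF4 (0.926), ENO2 (0.913), TCIM (0.910), TICAM1 (0.904) and CD274 (0.877). Between members, r was 0.791 for IL6 and LIF, 0.799 for IL6 and IL11, and 0.771 for LIF and IL11. Over the 16 treated mouse groups and 16593 genes, r was 0.937 for Il6 and Lif, 0.569 for Il6 and Il11, and 0.564 for Lif and Il11. The most similar identifiers in mice were ENSMUSG00000024539.17 for Il6 (0.976) and ENSMUSG00000046610.15 for Lif (0.980). With a pseudocount of 2 CPM, 3 of the 5 genes listed for IL6 2 of the 5 for IL11 and 0 of the 5 for Lif stayed in the list. Without the 3 libraries that stood apart, 4 of 5 stayed for each of IL6, LIF, IL11 and Il6, 3 of 5 for Lif and 2 of 5 for Il11.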

How the data were processed

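The authors deposited 13 tables of fragment counts per gene, whose 99 count columns were all used (0 left out). Alignment used HISAT2 2.2.1 (hg19 for human, mm10 for mouse) and counting used featureCounts 2.0.2, per the submitters' processing notes. Per the labels, libraries were made with a NEBNext Ultra kit, which does not mark the strand. For the counting, the strand setting was not given in the sources used here.

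Counts were used as deposited. CPM and FPKM were computed from them with all fragments counted in a library and the exonic length in the tables. Each experiment was fitted with edgeR 4.0.16 in R 4.3.3 (filterByExpr, TMM, 1 coefficient per group, quasi-likelihood F test, SE as the log2 change over the square root of F). Over 63 comparisons in 19 fits, joint fits included, there were 189 member tests. Of these, 5 were not usable because IL6 had 0 counts in 1 or 2 of the groups they rest on, which left 184. Alternatives were DESeq2 1.42.0, DESeq2 size factors, no low-count filter, the replicate number as a block, and leaving out each library of a comparison. A lone library was then assumed to vary like the other groups. Simulated counts were used to test the fits.

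The members, gene lists and naming rule were chosen with earlier results of these data known. The text names the members in every comparison, pathway genes called in 1 direction in at least 4 of 6 human stimulus comparisons, and the main receptors. The 5 genes most alike in pattern to a member are also named, among those of at least 1 CPM in a group. Of 57820 human identifiers 51996 matched a name, and of 55401 mouse identifiers 0, so mouse pathway genes, markers and the targeted mouse genes were not analysed here. The lowest chi-square per degree of freedom between libraries of a group was 2.81 over 57 pairs, so none was a copy. In Lung4, 2 lines without an identifier, 3e-06% of counts, were left out. In 3 groups (lysenin and PlyA2EryB of IL33KO2, and DPBS of Rag2gc) both columns share a name and the libraries carry no number. The H292-2 table is named for ALT, whereas its labels give Aeg-S/L. The labels speak of biological replicates and do not tie libraries to animals. Of the groups with 3 numbered libraries, ALT+Tra and DPBS of H1437-1 met the bar for pairing by number, with r of their deviations from 0.291 to 0.596 in 3 of 3 pairs. The replicate block changed no member call between them. Fits and patterns without libraries that stood apart were added after seeing the data.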

Additional observations from a re-analysis of the deposited data

Results flagged for a closer look

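A joint test of the difference called 12 responses as different in size between the experiments compared. Each pair of experiments differs in line or genotype and in being run apart, and these cannot be told apart. Between the lines, the LIF response was larger in NCI-H292 than in NCI-H1437 by 1.22 for WT ALT and 2.23 for Aeg-S/L (log2), and the IL11 response to WT ALT differed by -1.42. Against Aeg-S/L, the BAPTA-AM effect in NCI-H292 minus that in NCI-H1437 was 2.17 for IL6 and -2.11 for LIF, and the EGTA effect differed by 1.31 for IL6 and -2.04 for LIF. In mice, the Il6 response to Aeg-S/L in Rag2gc exceeded that in Lung2 by 2.202. In IL33KO2 against Lung4, the lysenin response differed by -2.05 for Il6 and -1.23 for Lif, and the LSL response by -1.73 for Il6 and -2.74 for Lif. As given above, leaving out 1 library lost the calls for IL11 with WT ALT, Il6 in Rag2gc and Lif with lysenin. The LIF differences for Aeg-S/L and for the chelators share the Aeg-S/L groups and are not separate results. No group held 4 to 10 libraries, so no single library was tested for standing apart from its group.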

How the results depend on the processing

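Of the 184 member tests, DESeq2 size factors kept direction and call in 184. DESeq2 kept both in 177, gained 3 calls, lost 3 and gave no adjusted p in 1, and without the low-count filter 173 kept both, 10 gained a call and 1 lost it. Leaving out 1 library kept direction and call in 845 fits, lost a call in 39, gained one in 13 and reversed 1. That reversal was the Il6 difference between IL33KO2 and Lung4 for PlyA2EryB, -0.10 with all libraries and between -0.62 and 0.87 with 1 left out. The number of members called in human cells with a knockout extract or single protein against DPBS was 1, and 2 without the low-count filter, with 0 to 3 when leaving out 1 library. In mice it was 0, and 1 without the filter, with 0 to 2 when leaving out 1 library. The 5 calls among knockout mouse responses were 9 without the filter, and the cause was not tested. Apart from leaving out a library, no other number of members called moved by over 1.5 times. The number of all genes called moved by over 1.5 times with DESeq2 in 20 of 63 comparisons and without the low-count filter in 21. In edgeR, DESeq2 and edgeR without the filter, in that order, it was 766, 1394 and 1153 for ALT, 826, 1593 and 1864 for ALT+Tra against ALT, and 46, 408 and 1050 for ALT+Tra against DPBS in H1437-1. In H1437-2 it was 1140, 1931 and 2143 for Aeg-S/L, 216, 424 and 447 for Aeg-S/L+Tra against Aeg-S/L, 84, 168 and 306 for Aeg-S/L+Tra against DPBS, 429, 1420 and 1913 against the sum, 0, 3 and 278 for Aeg-S, and 0, 0 and 9 for Aeg-L. Against DPBS, aegs KO ALT gave 181, 361 and 426 in H1437-4, 0, 1 and 18 in H292-1 and 0, 12 and 97 in Lung3, and aegl KO ALT 128, 298 and 488, 20, 280 and 763, and 0, 26 and 119. In Lung2, Aeg-S gave 0, 13 and 775 and Aeg-L 0, 10 and 132. In IL33KO1, ALT gave 530, 2465 and 2803 and Aeg-S/L 1985, 4300 and 4648. For Aeg-S/L, the difference of IL33KO1 from Lung2 gave 1732, 2967 and 3092 and that of Rag2gc 1491, 2295 and 2812. Except between ALT+Tra and DPBS of H1437-1, the replicate numbers did not meet the bar for pairing, or groups had fewer than 3 pairs. Over 124 pairs of the same number, r of their deviations ran from -0.554 to 0.596, and 19 were over 0.1. In groups of 2 libraries the deviations mirror each other, so both numbers gave the same r and each such value is counted 2 times. Every library of Lung1 (6 of 6) correlated best with its own number, as did 7 of 9 in H1437-1. With the replicate block, 15 calls were lower with an inhibitor or chelator (16 without it), 23 higher in mice with a stimulus (24), 3 above the sum (4) and 6 among Lung4 proteins (5). The calls lost were IL11 for ALT+Tra against ALT in H1437-1 (adjusted p = 0.0551), IL11 above the sum in H1437-2 (0.0658) and Il6 for ALT in IL33KO1 (0.0631), and the call gained was Il11 for PlyA2EryB against lysenin (0.0496). The block took the genes called to 266 for ALT and 1074 for Aeg-S/L in IL33KO1, and to 838 against Lung2 and 1636 against Lung1 (2725 without it). It could not be fitted for IL33KO2, Rag2gc and joint fits with them, in which some columns lack numbers. Groups of 2 or 3 libraries limit the precision of every value, and IL6 and Il11 at under 1 CPM rest on few counts.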
